A study of Danio rerio with 6 samples.

Results

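The genes described here handle and read calcium in the cell. They are the calcium pumps and sodium-calcium exchangers, the release and store-operated channels, calmodulin and the PEP-19 family, the calmodulin-dependent (CaM) kinases, the phosphatase calcineurin, the buffers parvalbumin and calretinin, the S100 proteins and the neuronal calcium sensors. Members were taken by a rule on gene symbols, set with earlier results of these data known, and 79 of the 14781 genes in the table met the rule. RNA-seq had been made from adult zebrafish retina of 3 samd7 mutant fish, homozygous for the allele stl888, and of 3 wild-type (WT) fish. All 6 fish were males of 3 months raised from crosses of heterozygotes, and the retinas of both eyes of 1 fish went into each library, which makes every replicate a different animal. Samd7 is a SAM-domain protein of photoreceptors, and the series concerns photoreceptor identity.

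Calcium carries signals in every retinal cell. In photoreceptors it enters through the cyclic nucleotide-gated channels of the outer segment and the voltage-gated channels of the synapse, and it falls in light. Plasma membrane pumps and exchangers move it out of the cell, SERCA pumps move it into the endoplasmic reticulum, and ryanodine and inositol trisphosphate receptors release it again. Calmodulin binds the ion and then switches on CaM kinases and calcineurin, while parvalbumin and calretinin mainly take it up as buffers. Many of these genes are present in zebrafish as paralogous copies, marked a and b in their symbols.

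The mutant libraries held between 20186266 and 24352510 reads in genes and the WT libraries between 22529193 and 29117026. Values below are normalised read counts, which are reads per gene divided by a size factor of the library; they are given in the order of replicates 1, 2 and 3, with means ± SD (n = 3 fish per genotype). They are not divided by transcript length, so levels are compared between fish and not between genes. Log2 changes are mutant minus WT on the log2(value + 1) scale, and adjusted p values come from limma, corrected by Benjamini and Hochberg's method across 11335 genes, with 0.05 as the threshold. The samd7 transcript was at 2471, 5121 and 3642 in the mutants and at 4196, 4557 and 5186 in WT, which overlapped, so its level did not check the labels. Of 11 tested cone markers 5 fell and of 11 rod markers 1 fell. The summed cone markers lay between 445334 and 514256 in the mutants and between 874346 and 1262985 in WT, and the summed rod markers between 583013 and 2122409 in the mutants and between 1952181 and 3169867 in WT. No marker of either list was at 0. In whole retina, fewer cells of a type and less RNA per cell cannot be told apart.

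In the mutant retinas the PEP-19 relative pcp4l1 rose, and the kinases camk2d1 and camk1gb, the plasma membrane pump atp2b1b and the calcineurin subunit ppp3cca fell. These were 5 of the 65 members that reached a value of 10 in at least 3 libraries and were tested, with 1 higher (0.829% of all tested genes were higher) and 4 lower (1.78% of all tested genes were lower). Together 7.69% of the tested members changed, against 2.61% of all tested genes, though the counts are small. Members also had more reads than most genes, the median member being at percentile 73.0 of mean normalised count among tested genes. The part of read depth in the difference was not tested. At an unadjusted p below 0.05 there were 16 members, or 24.6%, and 21.0% of all genes. The median log2 change was 0.09 over the 65 members and 0.01 over all genes, and the median size of a change was 0.26 and 0.24. The genotypes did not overlap for 19 of 65 members, or 29.2%, and for 28.1% of all genes. The mutants were higher for 9 of these members (13.3% of all genes) and lower for 10 (14.8% of all genes). With library totals as the scaling, which moved the median log2 change of all genes to 0.36 and that of the members to 0.44, 13 members were called higher and 4 lower (17.5% and 1.24% of all genes) in place of 1 and 4. The 12 added to those called higher were pcp4a, calm2a, calm2b, camk2d2, camk2b1, camk2n1a, atp2a2a, atp2a2b, slc8a1a, calb2b, pvalb6 and s100a10b. Of those called lower, atp2b1b dropped out (limma, adjusted p = 0.0866) and camk1ga was added (0.0318). DESeq2 on the recovered reads called 1 member higher and 7 lower (4.14% and 6.63% of all genes).

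**Figure D1:**
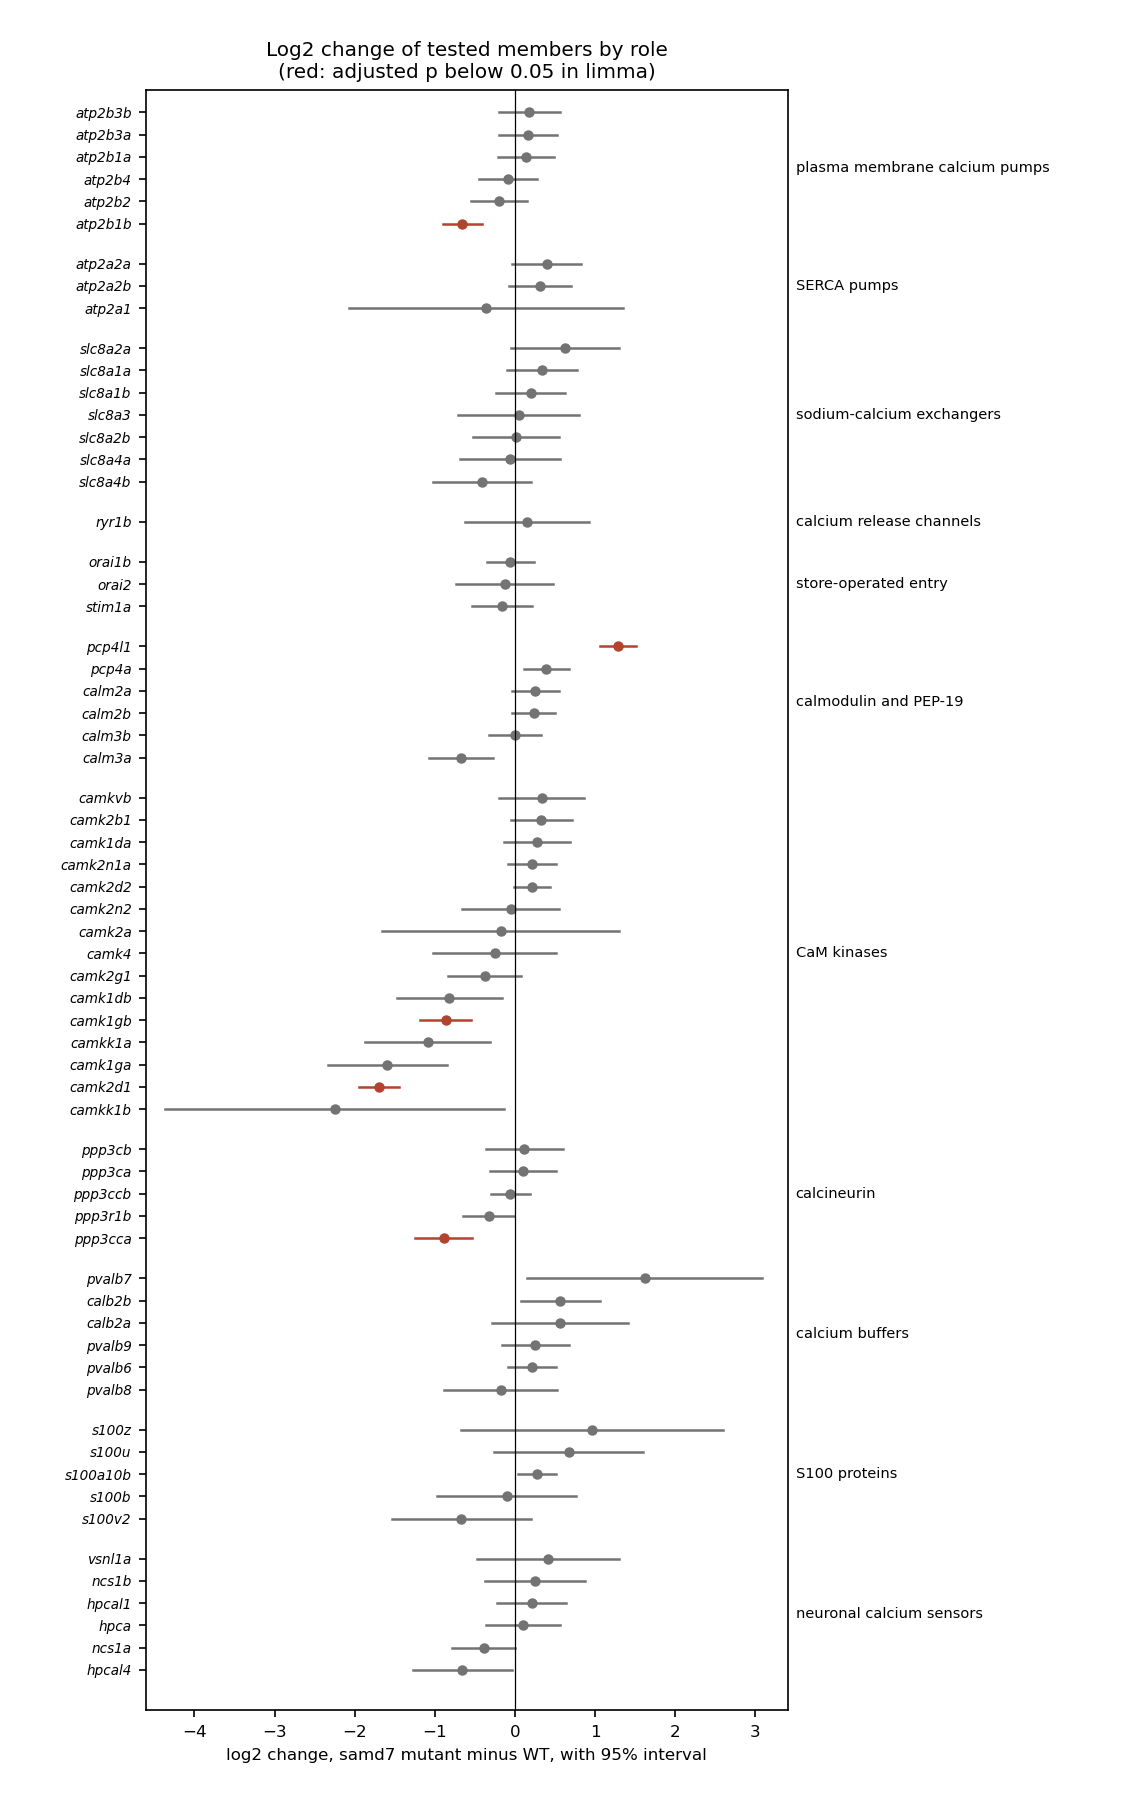
Log2 change of 63 of the 65 tested members, samd7 mutant minus WT, with its 95% interval from limma, in blocks by role. Red marks the 5 members past the threshold: pcp4l1 at 1.29 to the right of 0, and camk2d1, camk1gb, ppp3cca and atp2b1b between -1.70 and -0.66 to the left.

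Of the 8 tested genes of calmodulin and the PEP-19 family, 3 had an unadjusted p below 0.05, against 21.0% of all tested genes. Among the 8, pcp4l1 was the member that rose (0.829% of all tested genes were higher). It is a relative of PEP-19, the small protein encoded by pcp4 that binds calmodulin through an IQ motif and changes how fast calmodulin takes up and releases calcium. pcp4l1 was at 3865, 4260 and 4022 in the mutants and at 1685, 1757 and 1534 in WT. All mutants were above all WT fish, and each genotype varied little around means of 4049 ± 199 in the mutants and 1659 ± 114 in WT. This was a 2.44-fold rise (log2 change 1.29, SE 0.09, adjusted p = 0.00324), and it passed the test in all 18 alternatives, each library left out in turn among them (adjusted p up to 0.0349). Its relative pcp4a was at 9721, 9033 and 8638 in the mutants and at 7981, 6599 and 6400 in WT, without overlap, and did not pass (log2 change 0.39, 95% interval 0.11 to 0.67, adjusted p = 0.134). In the same libraries the 12 retinal ganglion cell markers summed to between 23991 and 26689 in the mutants and to between 12859 and 18676 in WT. Of these markers sncga alone was called higher, and none was at 0. The Müller glia markers, of which 11 were tested and none called or at 0, summed to between 326446 and 357180 in the mutants and to between 296549 and 312488 in WT. The bipolar cell markers summed to between 81678 and 99812 in the mutants and to between 60995 and 99917 in WT. The horizontal cell markers summed to between 11277 and 11354 in the mutants and to between 11002 and 11364 in WT. The sums of bipolar, horizontal and amacrine cell markers overlapped between the genotypes, and no gene of these lists was called. The ganglion cell and Müller glia sums were higher in every mutant than in any WT fish. The part of ganglion cell, glial or other cell RNA in the rise of pcp4l1 was not tested.

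The calmodulin genes calm2a, calm2b, calm3a and calm3b gave no call in limma at the deposited scaling. In mammals the calmodulin genes all encode the same protein. calm3a was at 4902, 4803 and 3652 in the mutants and 8531, 6493 and 6340 in WT, which did not overlap. Its log2 change of -0.68 missed the threshold (95% interval -1.08 to -0.28, adjusted p = 0.0866), and it was called by DESeq2 (adjusted p = 0.0102). The copy calm3b, with 38395 ± 2223 in the mutants and 38656 ± 5510 in WT, had a log2 change close to 0 (95% interval -0.33 to 0.33). For calm2a and calm2b all mutants were above all WT fish, with log2 changes of 0.25 and 0.23 that did not pass (adjusted p = 0.297 and 0.293). With library totals both were called higher, as were 17.5% of all tested genes.

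**Figure D2:**
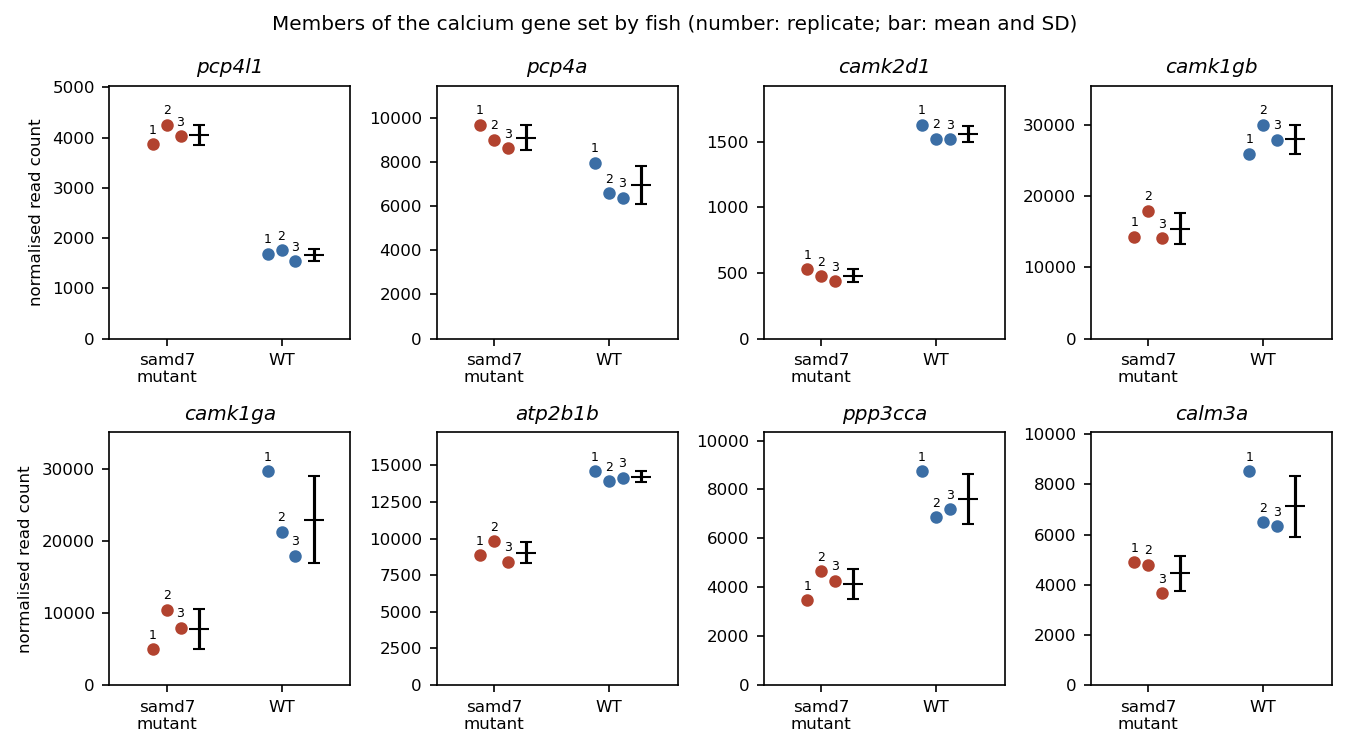
Normalised read counts of 8 members in each fish, with the replicate number at each point and the mean and SD as a bar, on axes that start at 0. pcp4l1 lies near 4049 in the mutants and near 1659 in WT, camk2d1 near 480 in the mutants and near 1559 in WT, and for camk1ga WT replicate 1 at 29664 stands above the other WT fish.

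Of 16 genes of the CaM kinase group 15 were tested, 2 fell, none rose, and 13 did not pass. Of all tested genes 1.78% were lower and 0.829% were higher. At an unadjusted p below 0.05 there were 6 of the 15, against 21.0% of all tested genes, though the counts are small. With library totals camk2d2, camk2b1 and the inhibitor gene camk2n1a were called higher, as were 17.5% of all tested genes. The gene camk2d1 encodes a delta form of CaM kinase II, the kinase that holds itself active after a calcium pulse by phosphorylating itself. It was at 529, 477 and 435 in the mutants and at 1632, 1525 and 1521 in WT, so that the genotypes were far apart relative to their spread. Its level was 480 ± 47.2 in the mutants and 1559 ± 63.3 in WT, or 0.308 of WT (log2 change -1.70, SE 0.11, adjusted p = 0.00282), and it passed in all 18 alternatives (adjusted p up to 0.0306). Its log2 change was between -1.77 and -1.35 over them.

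Other CaM kinase II genes did not pass the test. The second delta gene camk2d2 was at 7222, 8030 and 7437 in the mutants and at 6181, 6543 and 6849 in WT, all mutants being above all WT fish (log2 change 0.21, 95% interval -0.01 to 0.44, adjusted p = 0.261). camk2b1 had a log2 change of 0.33, camk2g1 of -0.38 and camk2a of -0.18, each with overlap of the genotypes. The 5 kinase genes together summed to 13478 ± 796 in the mutants and to 13981 ± 1285 in WT, a ratio of 0.964. Within this sum the share of reads of camk2d1 was 3.57 ± 0.435% in the mutants and 11.2 ± 0.618% in WT, and that of camk2d2 was 56.1 ± 0.734% in the mutants and 47.0 ± 5.95% in WT. Shares of a sum are tied to each other, so one falling raises the others. Of the CaM kinase II inhibitors, camk2n1a (log2 change 0.22) and camk2n2 (-0.05) did not pass, and camk2n1b was too low to test, with at most 5.25 in any fish.

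Both CaM kinase I gamma genes were lower in every mutant than in any WT fish. camk1gb was at 14294, 17900 and 14058 in the mutants and at 25923, 30018 and 27871 in WT, which is 0.552 of WT (log2 change -0.86, SE 0.13, adjusted p = 0.0363). Its copy camk1ga was at 4953, 10436 and 7957 in the mutants and at 29664, 21252 and 17900 in WT, or 0.339 of WT. With a log2 change of -1.59 (SE 0.31) and a larger spread in both genotypes, camk1ga had an adjusted p of 0.0540 and was not called. It passed without mutant replicate 2 (adjusted p = 0.0490), with DESeq2 (4.21e-05) and with library totals (0.0318), and it has an adjusted p of 4.17e-05 in the authors' deposited table. In the other alternatives camk1ga did not pass, with adjusted p from 0.0523 to 0.200, edgeR (0.0583) and voom (0.0634) among them. The reads of both genes together were 23199 ± 4659 in the mutants and 50876 ± 4919 in WT.

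The kinases that act above CaM kinase I, camkk1a and camkk1b, and the delta gene camk1db lay lower in the mutants without passing in limma. camkk1a was at 115, 266 and 218 in the mutants and at 350, 506 and 366 in WT (log2 change -1.09, adjusted p = 0.132), and it was called by DESeq2 (adjusted p = 0.0290). camkk1b was at 1614, 3090 and 949 in the mutants and at 30159, 5288 and 3171 in WT (log2 change -2.25, 95% interval -4.36 to -0.13, adjusted p = 0.217). For camkk1b WT replicate 1 alone was far above the other WT fish, although no WT fish was below a mutant. Without that library its log2 change was -1.29 (adjusted p = 0.264). camk1db was at 3875, 7135 and 3535 in the mutants and at 9396, 7842 and 7288 in WT (log2 change -0.82, adjusted p = 0.164). It was called without mutant replicate 2 (log2 change -1.13, adjusted p = 0.0341). The other members of the group, camk1da, camk4, a kinase found in neuronal nuclei, and camkvb, a relative without kinase activity, had log2 changes between -0.26 and 0.34 with overlap of the genotypes.

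Of the 6 plasma membrane calcium pumps 1 fell (1.78% of all tested genes were lower). At an unadjusted p below 0.05 there was 1 of the 6 pumps, against 21.0% of all tested genes. These ATPases remove calcium from the cell at rest and, in photoreceptors, from the synaptic terminal. atp2b1b was at 8883, 9823 and 8429 in the mutants and at 14623, 13914 and 14166 in WT. The WT fish were close together, and each mutant was below all of them (9045 ± 711 in the mutants and 14234 ± 359 in WT, log2 change -0.66, SE 0.10, adjusted p = 0.0360). Its copy atp2b1a was at 8136, 8187 and 7511 in the mutants and at 8908, 6265 and 6758 in WT, and the genotypes overlapped (log2 change 0.14, 95% interval -0.21 to 0.48, adjusted p = 0.647). The pumps atp2b2, atp2b3a, atp2b3b and atp2b4 had log2 changes between -0.20 and 0.18, and for each of them the 95% interval excluded a 2-fold change. atp2b1b made up 31.8 ± 0.947% of the reads of the 6 pump genes in the mutants and 44.2 ± 2.49% in WT.

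Of the 5 calcineurin genes ppp3cca fell (1.78% of all tested genes were lower). At an unadjusted p below 0.05 there were 2 of the 5, against 21.0% of all tested genes. Calcineurin is the phosphatase that calcium and calmodulin switch on, built of a catalytic subunit and the EF-hand subunit encoded by ppp3r1b. The catalytic gene ppp3cca was at 3459, 4651 and 4260 in the mutants and at 8755, 6877 and 7184 in WT, or 0.542 of WT (log2 change -0.89, SE 0.15, adjusted p = 0.0408). Each mutant was below each WT fish. The other catalytic genes, ppp3ccb, ppp3cb and ppp3ca, had log2 changes of -0.06, 0.12 and 0.10 with overlap of the genotypes. The share of ppp3cca in the catalytic reads was 48.3 ± 3.93% in the mutants and 64.0 ± 1.21% in WT. ppp3r1b was at 6001 ± 553 in the mutants and 7571 ± 1030 in WT and did not pass (log2 change -0.33, 95% interval -0.65 to -0.01, adjusted p = 0.225).

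The calls of camk1gb, atp2b1b and ppp3cca depended on single libraries. They were lost without mutant replicate 1 (adjusted p = 0.158, 0.158 and 0.155, given in that order of genes), mutant replicate 3 (0.178 for each), WT replicate 2 (0.129, 0.121 and 0.115) or WT replicate 3 (0.0892 for each). With any of these 4 libraries left out, camk2d1 and pcp4l1 were the only members called. The share of all tested genes called also fell. It was 2.61% with all libraries and 0.258%, 0.205%, 0.151% and 0.613% without these libraries, in the same order. With a library left out, the log2 change lay between -0.98 and -0.80 for camk1gb, between -0.72 and -0.61 for atp2b1b and between -0.98 and -0.76 for ppp3cca. In limma without trend all 3 calls were lost (adjusted p = 0.0747, 0.0765 and 0.0851), and voom did not call ppp3cca (0.0521). Of all tested genes limma without trend called 0.265% and voom 1.15%. With library totals the log2 changes were -0.51, -0.31 and -0.54, and atp2b1b was not called (adjusted p = 0.0866). The cone markers arr3a, gnat2, gngt2a, guca1d and slc24a2 fell in the same libraries, and their part in the 4 lower members was not tested.

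Copies of a gene were set against each other by the log2 ratio of the a copy to the b copy in each fish. Over all tested genes, 1111 pairs had symbols that differ only in a final a or b, and 16 of these were pairs of members. In mammals the genes ppp3ca and ppp3cb of one such pair are separate genes and not copies. None of the 16 ratios differed between genotypes past the threshold (limma on ratios, adjusted over the 1111 pairs, of which 0.09% passed). At an unadjusted p below 0.05 there were 4 of 16, against 15.9% of all pairs. The smallest p was that of ppp3cca over ppp3ccb, at 1.53 ± 0.17 in the mutants and 2.36 ± 0.21 in WT, without overlap (difference -0.83, 95% interval -1.29 to -0.36, adjusted p = 0.116). Next came atp2b1a over atp2b1b, at -0.13, -0.26 and -0.17 in the mutants and -0.72, -1.15 and -1.07 in WT (difference 0.79, 95% interval 0.34 to 1.24, adjusted p = 0.116). For calm3a over calm3b the difference was -0.67 (95% interval -1.14 to -0.21, adjusted p = 0.196), and again no mutant overlapped a WT fish. A different response of the copies of ppp3cc, atp2b1 and calm3 was therefore not shown at the threshold, although those intervals leave out 0. For calm2, atp2b3 and calb2 the difference lay between -0.02 and 0.02, and their 95% intervals stayed between -0.56 and 0.55. Copies are alike in sequence, and how the authors' counting shared reads between them is not given in the sources used here.

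**Figure D3:**
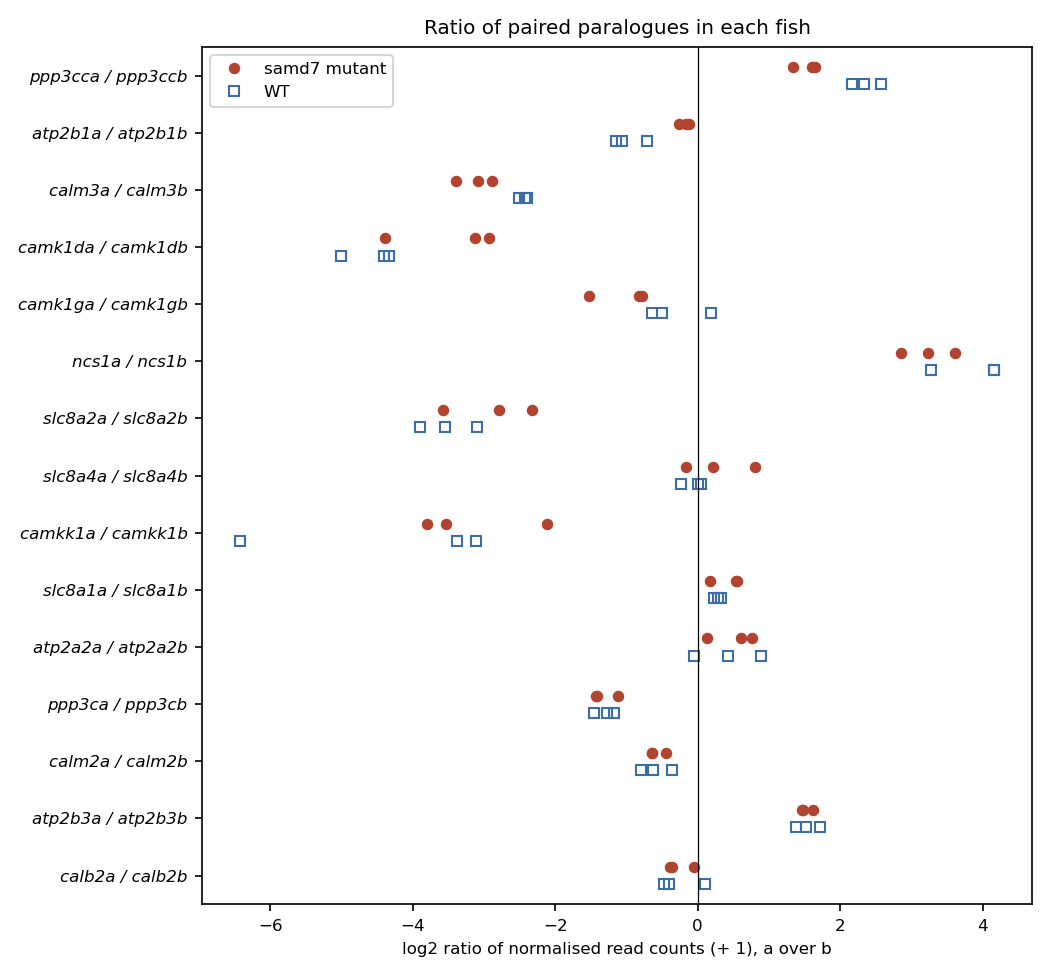
Log2 ratio of the a copy over the b copy in each fish for 15 of the 16 pairs of members, with mutants as filled circles above WT as open squares, ordered by p. The genotypes are apart for ppp3cca over ppp3ccb, atp2b1a over atp2b1b, calm3a over calm3b and camk1ga over camk1gb, and camkk1a over camkk1b has 1 WT fish at -6.42.

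The SERCA pumps, sodium-calcium exchangers, release channels and store-operated entry genes held no call in DESeq2, edgeR or limma at the deposited scaling. In that limma fit their adjusted p was 0.267 or more. Of their 14 tested genes 0 had an unadjusted p below 0.05, against 21.0% of all tested genes. atp2a2a, a SERCA pump found in most cell types, was at 864, 1122 and 1025 in the mutants and at 672, 978 and 665 in WT (log2 change 0.39, 95% interval -0.04 to 0.83). Its copy atp2a2b was at 790, 734 and 602 in the mutants and at 500, 528 and 688 in WT (log2 change 0.31). In the 2 genes the genotypes overlapped, and both were called higher with library totals (adjusted p = 0.0315 and 0.0437), as were 17.5% of all tested genes. The muscle SERCA gene atp2a1 was low, with 5.08 to 13.6 in the mutants and 3.48 to 18.4 in WT, and atp2a1l was too low to test.

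Among the 7 exchanger genes log2 changes lay between -0.41 and 0.63. slc8a2b was at 600, 661 and 432 in the mutants and at 663, 598 and 422 in WT, and the means of 565 ± 118 in the mutants and 561 ± 125 in WT were within the spread. slc8a1a, whose mammalian counterpart is the main exchanger of heart muscle, was at 302, 404 and 292 in the mutants and at 277, 221 and 289 in WT (log2 change 0.34, adjusted p = 0.349). Its copy slc8a1b had a log2 change of 0.20 and overlapped between genotypes. For slc8a2a, with 75.3 ± 18.1 in the mutants and 47.9 ± 8.32 in WT, the interval of the log2 change ran from -0.05 to 1.30.

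Of the release channels only 2 genes met the rule on symbols and 1 was tested. Of the 4 store-operated entry genes 3 were tested, and no gene of either role passed. The ryanodine receptor ryr1b was at 45.7, 35.6 and 44.0 in the mutants and at 26.3, 52.1 and 37.9 in WT (log2 change 0.15, 95% interval -0.63 to 0.93). The inositol trisphosphate receptor itpr3 had at most 5.92 in any fish. The store sensor stim1a was at 1120 ± 160 in the mutants and 1255 ± 202 in WT, and the entry channel orai1b at 357 ± 31.2 in the mutants and 372 ± 21.5 in WT. Their log2 changes were -0.16 and -0.06, and that of orai2 was -0.13. With library totals these 3 became 0.19, 0.29 and 0.22, and none passed under either scaling. stim1b stayed below the filter.

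Calcium buffers gave no call in DESeq2, edgeR or limma at the deposited scaling. Of the 6 tested, 2 had an unadjusted p below 0.05, calb2b and pvalb7, against 21.0% of all tested genes. A positive log2 change was found for 5 of the 6, pvalb7 among them, against 51.6% of all tested genes, though the counts are small. pvalb7 met the filter only through its mutant values, so its place in these counts carries no weight. The calretinin genes calb2a and calb2b mark amacrine and ganglion cells in the vertebrate retina. calb2b was at 5776, 5078 and 4935 in the mutants and at 4625, 2595 and 3710 in WT, all mutants above all WT fish (log2 change 0.57, 95% interval 0.07 to 1.06, adjusted p = 0.191). calb2a was at 5570, 3878 and 3860 in the mutants and at 4992, 1959 and 2664 in WT, where WT replicate 1 lay among the mutants (log2 change 0.56, adjusted p = 0.417). The amacrine marker list summed to between 77729 and 89167 in the mutants and to between 67169 and 97448 in WT, with none of its 13 tested genes called and none at 0. The ganglion cell marker sums given beside pcp4l1 were higher in every mutant than in any WT fish, and the part of either cell type in the calretinin values was not tested. Of the parvalbumins, pvalb9 was at 2420 ± 371 in the mutants and 2039 ± 388 in WT, and pvalb6 at 941 ± 95.6 in the mutants and 812 ± 95.7 in WT, with log2 changes of 0.25 and 0.21. pvalb8 had a log2 change of -0.18, and pvalb7, at 13.1 ± 0.798 in the mutants and 4.25 ± 2.94 in WT, was near the filter (log2 change 1.62, 95% interval 0.15 to 3.08, adjusted p = 0.202).

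The other 5 parvalbumin genes were near 0. No read of pvalb1 or pvalb2, fast-muscle parvalbumins of fish, was counted in any library, which allows up to 0.149 CPM in the smallest library at a limit of 3 reads. pvalb5 had 1 read and pvalb4 3 reads over all 6 libraries, and pvalb3 reached 8.11 at most. In the list of skeletal muscle markers 20 of 25 were in the table and 9 were tested, and tnni2a.4 was at 0. That list summed to between 801 and 905 in the mutants and to between 865 and 1143 in WT, with none of its genes called.

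S100 proteins are small EF-hand proteins that act as dimers on other proteins. Of 10 genes 5 were tested, and none passed in DESeq2, edgeR or limma at the deposited scaling. An unadjusted p below 0.05 was found for 1 of them, against 21.0% of all tested genes. s100a10b, whose mammalian counterpart binds annexin A2 and does not need calcium to do so, was at 5071, 5405 and 5155 in the mutants and at 3909, 4635 and 4415 in WT. The genotypes did not overlap (log2 change 0.27, 95% interval 0.04 to 0.51, adjusted p = 0.186). With library totals s100a10b was called higher (limma, adjusted p = 0.0225), as were 17.5% of all tested genes. s100z was at 95.2, 85.8 and 55.9 in the mutants and at 12.3, 77.6 and 60.9 in WT, where WT replicate 1 was low (log2 change 0.96, 95% interval -0.67 to 2.59). Without that library the log2 change of s100z was 0.16. s100v2 was at 105, 153 and 107 in the mutants and at 243, 259 and 109 in WT (log2 change -0.67, adjusted p = 0.349). s100b, a glial marker in mammals, was at 25.0 ± 6.67 in the mutants and 27.1 ± 7.75 in WT. The other 5 S100 genes had at most 8.11 in any fish.

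Neuronal calcium sensors change shape and move to membranes when calcium binds. All 6 were tested, and none passed in limma, DESeq2 or edgeR. Of these 1 had an unadjusted p below 0.05, against 21.0% of all tested genes. hpca was at 8429, 10494 and 9216 in the mutants and at 6521, 10432 and 9712 in WT (log2 change 0.10, 95% interval -0.36 to 0.56). ncs1a was at 750, 1119 and 1043 in the mutants and at 1132, 1343 and 1293 in WT, without overlap (log2 change -0.39, adjusted p = 0.243). The visinin-like gene vsnl1a was at 837, 648 and 465 in the mutants and at 797, 332 and 401 in WT, with overlap (log2 change 0.42, adjusted p = 0.572). hpcal4 had a log2 change of -0.66 (95% interval -1.27 to -0.04, adjusted p = 0.214), and ncs1b and hpcal1 had log2 changes of 0.25 and 0.21.

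Fish of a genotype differed in the same sense over many members. Mutant replicate 2 held the highest value of the mutants for 39 of the 65 members, or 60.0%, against 35.7% of all tested genes, and mutant replicate 3 for 5, or 7.69%, against 30.6%. WT replicate 1 held the highest value of the WT fish for 39 members, or 60.0%, against 39.0% of all genes. The median SD of log2 values was 0.21 for members and 0.18 for all genes in the mutants, and 0.27 for members and 0.24 for all genes in WT. For 42 of the 60 members that did not pass, the 95% interval of the log2 change excluded a 2-fold change in either direction. For the other 18 the interval reached 2-fold on at least one side. Over all 65 tested members the interval excluded a 2-fold change for 66.2%, against 66.9% of all tested genes.

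**Figure D4:**
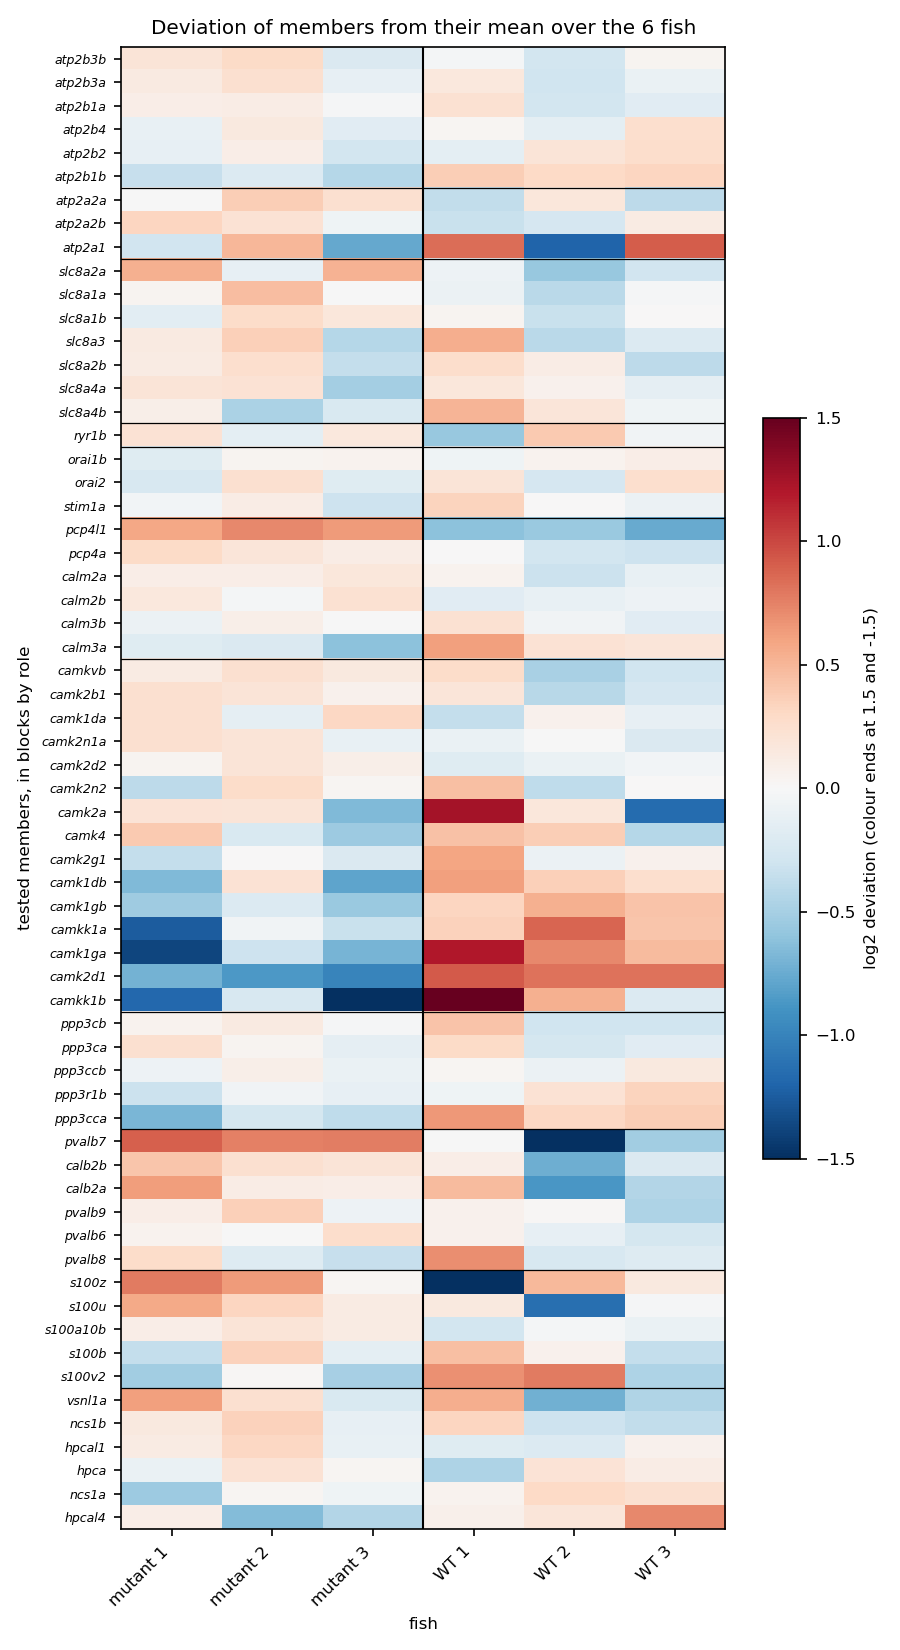
Log2 deviation of 63 of the 65 tested members, each from its mean over the 6 fish, with mutants left and WT right of the line and blocks by role. pcp4l1 is red in all 3 mutants and blue in all WT fish, camk2d1 the reverse, and camkk1b is beyond the red end of the scale in WT replicate 1.

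Other genes of calcium handling were taken from 4 lists with 140 entries outside the members, of which 83 were in the table and 75 were tested. Of these 1 rose and 1 fell, against 0.829% and 1.78% of all tested genes, and the median log2 change was -0.02. None of 7 genes of mitochondrial calcium uptake and none of 22 genes of the calcium stores passed in limma at the deposited scaling. An unadjusted p below 0.05 was found for 0 and 5 of them, against 21.0% of all tested genes. DESeq2 called none of the 7 and 3 of the 22, and edgeR called none of either. Of the other lists DESeq2 called 2 EF-hand sensors and 4 targets of calmodulin and calcineurin. Of all tested genes DESeq2 called 10.8% and edgeR 2.25%. Of 27 other EF-hand sensors icn rose, which encodes ictacalcin, a fish protein of the S100 family whose symbol lies outside the rule for members. icn was at 4766, 3299 and 3450 in the mutants and at 1412, 2024 and 1412 in WT, 2.38 times the WT level (log2 change 1.25, adjusted p = 0.0388). Of 19 targets of calmodulin and calcineurin adcy1b fell, an adenylyl cyclase of the kind that calcium and calmodulin stimulate in mammals. adcy1b was at 46.7, 20.9 and 27.1 in the mutants and at 107, 103 and 103 in WT (log2 change -1.77, SE 0.33, adjusted p = 0.0448). Both calls were lost without each library in turn, for icn with an adjusted p of 0.0520 to 0.156 and for adcy1b of 0.0674 to 0.186, and edgeR did not call adcy1b (0.0528). With a library left out the log2 changes lay between 1.08 and 1.42 for icn and between -2.09 and -1.53 for adcy1b. Between 0.151% and 3.25% of all tested genes were called in those fits. With the replicate block icn and adcy1b were also not called (limma, adjusted p = 0.0555 and 0.0537), while 2.55% of all tested genes were. Over all 18 alternatives icn kept its call in 10 and adcy1b in 7. The calcineurin inhibitor rcan1a, chosen after its values were seen, was at 1439, 2109 and 1385 in the mutants and at 3880, 2721 and 2898 in WT and missed the threshold in limma (log2 change -0.95, adjusted p = 0.0649), while DESeq2 called it. The other related genes that DESeq2 called and limma did not were calr3b, fkbp1aa, rcn3 and crtc1a, which were higher, and nucb2a and dapk2a, which were lower.

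An adjusted p is given for 65 members in the authors' deposited table, and 1 is higher and 7 are lower at the same threshold. That is 12.3% of them, against 10.2% of all genes with a value in the authors' deposited table (3.88% higher and 6.3% lower). The 8 are the 5 members above together with camk1ga, calm3a and camkk1a, and in the authors' deposited table camk2d1 has the smallest value of the members, 3.30e-32, and camkk1a the largest of the 8, 0.0294.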

How the data were processed

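Retinal RNA of 3 samd7 mutant and 3 WT fish had been sequenced as paired reads of 150 bp. Per the submitters' processing notes, reads were handled with STAR 2.7.2b, HTSeq 0.9.1 and DESeq2 1.34.0 among other tools, and the build was danRer10. Strand setting and annotation were not stated, so overlapping and antisense genes cannot be separated. The authors deposited signal values that are read counts divided by a size factor per library (0.863 to 1.18); 100% of the values gave whole reads within a tolerance of 0.01. Log2 fold changes and adjusted p values, per the file headers, are the authors' own.

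Symbols were used as deposited, and all 79 members were current symbols in the RefSeq table. Genotypes were compared with limma 3.58.1 (R 4.3.3), using trend and robust moderation on log2(value + 1), for genes with at least 10 in 3 libraries. On the recovered reads edgeR 4.0.16 called 255 genes and DESeq2 1.42.0 called 1220. Tools were tested on simulated data. Paralogue ratios were fitted with limma over all pairs. Members and lists were chosen with earlier results of these data known. Named by rule were all members past the threshold, the 12 smallest p, the 3 highest means per role, and related genes past the threshold; other members are given for completeness. Values of 2 members and 1 pair are not reported here, though counts over all members include them. No libraries of a genotype were copies (chi-square per degree of freedom at least 58.7).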

Additional observations from a re-analysis of the deposited data

How the results depend on the processing

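Among the 18 alternatives, pcp4l1 and camk2d1 kept their direction and their call in all of them. The smallest library held 20186266 reads, and 14 members were below the filter on low values. The number of members called lower was 4 (1.78% of all genes), and it was 1 without trend in limma (0.194%) and 7 with DESeq2 (6.63%). It lay between 1 and 6 when a library was left out, and the share of all genes called lower then lay between 0.0979% and 2.1%. With library totals 13 members were called higher in place of 1 (17.5% and 0.829% of all genes). The deviations of same-numbered fish correlated at 0.19, -0.14 and 0.23. Fish with different numbers were not compared, so these values cannot decide whether replicate numbers pair the fish. With the replicate block 2 members were called lower (1.84% of all genes), camk2d1 and camk1gb. In that fit atp2b1b (adjusted p = 0.0523 in limma) and ppp3cca (0.0615) were not called. Of the related genes, 1 higher and 1 lower became 15 higher of 75 with library totals (17.5% of all genes), 5 higher and 4 lower with DESeq2 (4.14% and 6.63% of all genes), and 0 in both directions without trend in limma. Limma without trend called 0.265% of all genes. The lower count was also 0 with upper-quartile scaling, edgeR and voom, where 1.14%, 1.44% and 0.82% of all genes were lower. When a library was left out the higher count was 0 and the lower count 0 to 1. The shares of all genes then were 0.0357% to 1.16% higher and 0.0979% to 2.1% lower. The 1 related gene lower without mutant replicate 2 was not adcy1b (limma, adjusted p = 0.0758). With the replicate block 1 related gene was higher and 1 lower (0.715% and 1.84% of all genes), and these were not icn and adcy1b. The count of 0 paralogue ratios was the same in all 11 alternatives, among them limma with trend.

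Signs were followed over the alternatives only for the genes named by rule and the paralogue ratios, so the list below leaves out other members. Among those followed, signs turned only for results that never passed, and the cause was not tested. With library totals calm3b was at 0.35, orai1b at 0.29, orai2 at 0.22, ppp3r1b at 0.020 and stim1a at 0.19 on the log2 scale. For calm3b the value was 0.0089 with TMM, 0.049 with upper-quartile scaling, 0.0011 with edgeR and 0.014 with voom. When a library was left out, calm3b lay between -0.087 and 0.11, hpca between -0.11 and 0.23, orai1b between -0.11 and 0.015, ppp3cb between -0.0034 and 0.36, ryr1b between -0.096 and 0.39 and slc8a2b between -0.18 and 0.19. Log2 ratios likewise lay between -0.15 and 0.31 for atp2a2a over atp2a2b, between -0.12 and 0.040 for ppp3ca over ppp3cb, between -0.081 and 0.14 for calm2a over calm2b, between -0.093 and 0.072 for atp2b3a over atp2b3b and between -0.12 and 0.18 for calb2a over calb2b.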
